A study of Homo sapiens with 4 samples.

Results

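The genes described here are 36 of the 19238 genes in a single-cell RNA table of human melanoma lines: 23 genes of the amino acid response, most of them reported targets of the transcription factor ATF4, 12 cytosolic aminoacyl-tRNA synthetases, and XPOT, the exportin that carries tRNA out of the nucleus. They were taken from a fixed list of symbols, and all 36 were in the table. The rule for the list goes by gene identity, but the list was chosen with earlier results of these data known. Shares of members set beside shares of all genes are therefore descriptions and no independent support.

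The study profiled 4 lines, 1 library each: WM239A, labelled poorly metastatic, and its subclones 113/6-4L, which tends to spread to the lung, and the pair 131/4-5B1 and 131/4-5B2, which tend to spread to the brain. No treatment is named for any of them, and the sources used here do not state how many cells founded each subclone. Droplet-based 3′ sequencing gave UMI (unique molecular identifier) counts for 8173 cells, whose names end in a suffix from 1 to 4. No label or file ties a suffix to a line, so the 4 groups of cells are called sets 1 to 4, no line is compared with another, and no p-value is given.

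When amino acids run short or unfolded proteins build up in the endoplasmic reticulum (ER), kinases phosphorylate the translation factor eIF2α. General translation then falls, while the ATF4 mRNA is translated better. ATF4 pairs with C/EBP proteins at composite DNA sites and raises genes for amino acid import, serine and asparagine synthesis, one-carbon metabolism and tRNA charging, together with regulators that dampen or end the response, such as TRIB3 and DDIT3 (CHOP). In melanoma cells this response is known to be engaged by nutrient limitation and by ER stress.

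The composite site is shown first because it was found in members of both groups, metabolic or stress genes and synthetases. RefSeq promoter sequences (GRCh38.p14, 250 bases before to 50 after the start of each gene) matched 29 of the 36 members, the synthetases under their newer symbols such as AARS1. Each was searched on both strands for TGATGNAA, which reads TTNCATCA on the other strand. The capitals mark the match, and the flanks are 10 bases on either side, written along the gene's strand.
ASNS: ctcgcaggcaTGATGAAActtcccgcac
CHAC1: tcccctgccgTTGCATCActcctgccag
ATF3: aaggtcaggaTGATGGAAggctgtcata
HERPUD1: acgcggcgggTTGCATCAgcccgtgccc
AARS: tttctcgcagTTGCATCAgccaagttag
CARS: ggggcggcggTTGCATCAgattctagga
IARS: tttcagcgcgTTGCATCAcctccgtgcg
MARS: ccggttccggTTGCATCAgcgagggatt
NARS: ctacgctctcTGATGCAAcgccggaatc
TARS: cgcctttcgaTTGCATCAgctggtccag

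These windows lie at chr7:97872459-97872486 (minus strand, ASNS, the match beginning 68 bases before the start), chr15:40953252-40953279 (plus strand, CHAC1, 209 bases before), chr1:212565206-212565233 (plus strand, ATF3, 191 before), chr16:56931956-56931983 (plus strand, HERPUD1, 176 before) and chr16:70289676-70289703 (minus strand, AARS, 187 before). The other synthetase windows sit closer to the start: chr11:3057408-3057435 (minus strand, CARS, 2 before), chr9:92293693-92293720 (minus strand, IARS, 13 before), chr12:57488054-57488081 (plus strand, MARS, 4 before), chr18:57621805-57621832 (minus strand, NARS, at base 15 after) and chr5:33440957-33440984 (plus strand, TARS, at base 3 after). The same 8 letters, on one strand or the other, stand in every printed window except those of ASNS and ATF3. SLC3A2 also held a match, too close to the end of the retrieved stretch to print a full window. In all, 11 of the 29 matched members held the motif (37.9%), 5 of 18 in the ATF4-pathway group and 6 of 11 among the synthetases and XPOT, against 1003 of 27305 promoters of the same length (3.67%). A second motif, the ER stress response element in its usual spaced form, also searched on both strands, was in 0 of the 29 and in 0.0806% of all promoters. For so rare a motif, 0 of 29 says nothing about the members. Other forms of the element were not searched. A match describes letters only. No promoter sequence was used for NUPR1, SLC7A11, PSPH, SHMT2, ALDH1L2, LARS and YARS.

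Sets 1 to 4 held 2121, 1779, 2140 and 2133 cells and between 71182648 and 71915542 UMIs each, with a median of 33152.5 to 41131 UMIs per cell. Median mitochondrial shares were 5.41%, 6.73%, 7.12% and 6.83%, and 37.9%, 27.3%, 29.5% and 20.8% of cells scored as G1 phase. Of 8 melanocyte markers, 7 were measured, with a summed level of 6946 to 9873 counts per 1000000 UMIs (CPM). Endothelial, epithelial, lung and neural markers summed to at most 2.98 CPM in any set, immune markers, nearly all from CD68, summed to 29.9 to 38.6 CPM, and KRT5, COL3A1, PECAM1, CDH5, CD3E, GFAP, MOG, SFTPB and SCGB1A1 were not in the table. LUM, a fibroblast matrix gene, stood at 12.7 CPM in set 1 and at no more than 2.18 CPM elsewhere, and its part in the results for set 1 was not tested. In the sets, 39 barcodes occurred more than once (78 cells). No doublet caller was run and no doublets were removed here, and their part in cells with high sums was not tested. Levels below are CPM of the summed counts of a set, with exact Poisson intervals at 95%, and ratios carry exact conditional binomial intervals at 95%. All intervals cover counting error only.

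The amino acid response genes differed between the sets in a shared order, highest in set 1, then set 3, with sets 4 and 2 low. Of the 36 members, 33 were measured, meaning at least 10 CPM in 1 or more sets, and 7 of those spanned at least 2-fold on the log2(CPM + 1) scale, which understates ratios of low genes. The background was 5.85% of 7421 genes. The 7 were all ATF4-pathway genes (ATF4, TRIB3, ASNS, NUPR1, SLC7A11, SESN2 and DDIT4), of 20 measured in that group, and none was among the 13 synthetases and XPOT. SLC7A11 and SESN2 reached 10 CPM in set 1 alone, the set where they were highest. The limit thus favours counting such genes as 2-fold apart and as highest in set 1, among the members and among all genes. Of the 33, 24 were highest in set 1, against 44.9% of all measured genes. From high to low, 15 of the 33 ran as sets 1, 3, 4 and 2, and another 7 as sets 1, 3, 2 and 4. Sets 1 and 3 both lay above sets 2 and 4 for 26 of the 33, a pattern picked after the values were seen and found for 12.6% of all measured genes. Set 3 exceeded set 4 in 32 of 33 members, against 40.1% of all genes, and set 1 exceeded set 2 in 31 of 33, against 59.7%.

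Relative to the median of the 4 sets, the ATF4-pathway genes had a median log2 level of 0.33, -0.35, 0.19 and -0.16 in sets 1 to 4. The same medians for synthetases and XPOT were 0.22, -0.13, 0.11 and -0.10, a flatter version of the same order. Over all measured genes they were 0.04, -0.01, -0.01 and 0.00.

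Among the transcription factors, ATF4 itself stood at 169, 80.8, 113 and 88.2 CPM in sets 1 to 4. The ratio of set 1 to set 2 was 2.09 (2.03 to 2.16). Sets 4 and 2, neighbours in that order, still differed by a ratio of 1.09 (1.05 to 1.13). DDIT3, the pro-apoptotic C/EBP relative that ATF4 induces, had 95.2, 54.2, 78.4 and 60.0 CPM in the same order of sets. It overlaps MARS tail to tail on the opposite strand by 982 bases in the GENCODE annotation. The sources used here do not state whether reads were counted by strand, so reads of either gene could be credited to the other. CEBPB, a C/EBP partner of ATF4, ran at 111, 75.4, 111 and 90.7 CPM, and sets 1 and 3 could not be separated (ratio 0.993, 0.962 to 1.02). ATF3, an ATF4-induced repressor, stayed under 10 CPM everywhere, with 6.07 CPM in set 1 and 0.857 CPM in set 4. ATF5, an ATF4 relative under the same translational control, varied little, from 7.68 CPM in set 2 to 11.0 CPM in set 1.

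The feedback and stress genes ranged from narrow to the widest span. TRIB3, a pseudokinase that binds and restrains ATF4, had 114, 38.3, 100.4 and 59.8 CPM, a ratio of 2.97 (2.84 to 3.10) from set 1 to set 2. CHAC1, which degrades glutathione, had 5.89, 0.473, 3.28 and 0.281 CPM, from 422, 34, 234 and 20 UMIs. Set 1 over set 4 gave a ratio of 21.0 (13.4 to 34.7) and sets 2 and 4 could not be separated (0.594, 0.324 to 1.06). CHAC1 therefore stayed below 10 CPM in every set while separating the higher and the lower sets more widely than TRIB3.

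NUPR1, a small stress-induced chromatin protein, broke the shared order: it had 56.9, 8.20, 249 and 117 CPM, highest in set 3. Its ratio of set 3 to set 2 was 30.4 (28.0 to 33.0), and set 4, low for most members, held 14.3 times the level of set 2 (13.1 to 15.6). SESN2, a leucine sensor that inhibits mTORC1, had 10.5, 2.89, 5.46 and 2.25 CPM. DDIT4 (REDD1), another mTORC1 inhibitor, had 71.6, 28.8, 37.0 and 23.8 CPM, a ratio of 3.01 (2.84 to 3.18) between sets 1 and 4. For SESN2 and DDIT4, as for ASNS, SLC7A11 and ATF3, set 4 rather than set 2 was lowest. HERPUD1, a component of ER-associated degradation that both ATF4 and ATF6 are known to induce, ran only from 94.6 to 124 CPM.

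Amino acid supply genes were split between wide and narrow. ASNS, asparagine synthetase, had 39.9, 17.5, 25.5 and 14.4 CPM, a ratio of 2.76 (2.57 to 2.97) from set 1 to set 4. SLC7A11, the cystine importer, had 18.2, 3.25, 7.46 and 2.35 CPM, a ratio of 7.74 (6.59 to 9.15). Both were highest in set 1 and lowest in set 4, with set 3 between set 1 and the lower pair. SLC3A2, the heavy chain that SLC7A11 shares with the leucine carrier SLC7A5, moved less, from 139 CPM in set 2 to 234 CPM in set 1. SLC7A5 ran from 76.7 to 114 CPM in the same order of sets.

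In the serine and one-carbon branch no measured gene reached 2-fold. PHGDH, the first enzyme of serine synthesis, had 135, 103, 191 and 158 CPM and, like NUPR1, was highest in set 3 and next in set 4. PSAT1, the second enzyme, kept the usual order with 113, 64.0, 103.6 and 78.3 CPM, whereas PSPH, the third, was high in set 1 alone (44.2, 28.0, 25.04 and 22.3 CPM). The 3 enzymes of one short pathway thus had 3 different orders over the sets. MTHFD2, the mitochondrial folate enzyme, had 179, 120, 164 and 121 CPM, and sets 4 and 2 could not be separated (ratio 1.01, 0.980 to 1.04). SHMT2, which feeds it, spanned 85.1 to 110 CPM, and PCK2, mitochondrial PEP carboxykinase, 7.05 to 10.7 CPM. ALDH1L2, a mitochondrial folate dehydrogenase, was below the 10 CPM limit, with 9, 17, 184 and 105 UMIs, and had a ratio of set 3 to set 1 of 20.5 (10.6 to 45.5). Its levels in sets 3 and 4 were 2.58 and 1.48 CPM, and like PHGDH it was highest in these sets. VLDLR, a lipoprotein receptor listed as an ATF4 target, had 6.90 CPM in set 2 and 13.2 CPM in set 3.

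The synthetases spanned less, up to 1.61-fold. CARS, for cysteine, had the widest ratio, with 26.0, 16.1, 23.7 and 17.0 CPM. AARS (alanine) followed at 24.5, 15.7, 19.9 and 17.8 CPM, and GARS (glycine) had 128, 101.5, 118 and 100.7 CPM, where sets 2 and 4 could not be separated (0.991, 0.959 to 1.02). LARS (leucine) was flat at 53.9, 52.9, 55.4 and 54.1 CPM. EPRS, the joint glutamate and proline enzyme, was the only measured member highest in set 2, at 66.8 CPM against 61.5 CPM in set 1, a ratio of 1.09 (1.04 to 1.13). TARS (threonine) ran from 60.4 to 68.0 CPM. LARS, EPRS and TARS were also the only synthetase members in which sets 1 and 3 did not both exceed sets 2 and 4, and NARS (asparagine) did so by a hair, at 96.2 CPM in set 3 and 96.1 CPM in set 4. XPOT, the tRNA exportin, followed the common order with 37.0, 24.6, 35.8 and 28.5 CPM.

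Summing the members in each cell shows how these set levels were spread over cells. Cells were thinned to 10000 UMIs, and the 9 shallower cells were left out. The 23 ATF4-pathway genes then gave a median of 15, 10, 15 and 13 UMIs per cell in sets 1 to 4, or 14.4, 10.1, 15.1 and 13.0 per 10000 UMIs without thinning. The 95th percentiles were 38, 17, 37 and 22 UMIs. Sets 1 and 3 differed from sets 2 and 4 far more at the upper end than in the middle.

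The 90th percentile of all pooled cells was 25 UMIs. Set 1 placed 464 cells there (21.9%, 20.2 to 23.8%, exact Clopper-Pearson interval) and set 3 placed 381 (17.8%, 16.2 to 19.5%). Set 4 placed 40 (1.88%, 1.34 to 2.55%) and set 2 placed 20 (1.12%, 0.688 to 1.73%). This limit is a point on a continuous range and no cell class: 38, 3, 41 and 10 cells of sets 1 to 4 lay at 25 UMIs and 37, 1, 39 and 10 at 1 UMI below. The variance of the sum over its mean was 5.67, 2.45, 4.78 and 1.69.

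**Figure D1:**
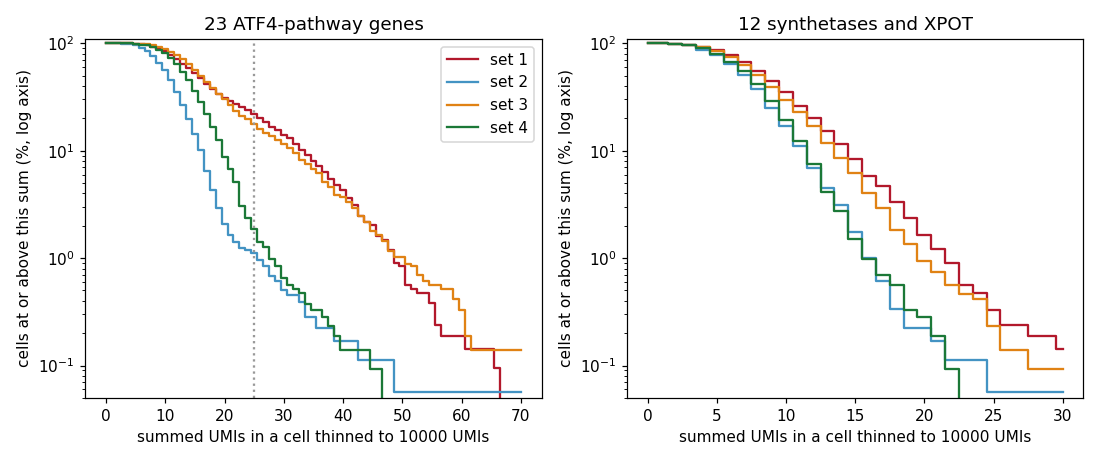
Percent of cells (log axis) at or above each summed UMI count, for the 23 ATF4-pathway genes and for the 12 synthetases with XPOT, in cells thinned to 10000 UMIs. The dotted line marks 25 UMIs, above which sets 1 and 3 keep 21.9% and 17.8% of their cells and sets 2 and 4 keep 1.12% and 1.88%.

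Synthetase and XPOT sums had medians of 8, 7, 8 and 7 UMIs and 95th percentiles of 16, 12, 15 and 12. Cells at or above their own 90th percentile of 12 UMIs made up 20.05%, 6.92%, 17.1% and 7.55% of the sets. The synthetases thus repeated the upper tail of sets 1 and 3 on a smaller scale. Over cells, the ATF4-pathway and the synthetase sums had a Spearman rho of 0.470 in set 1 (2115 cells), 0.175 in set 2 (1778), 0.404 in set 3 (2139) and 0.160 in set 4 (2132). These cells share their library and, within it, their depth of 10000 UMIs, and no p is given.

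Cells above the 25-UMI limit were described by single members as well, without a test, since the members define the limit. In set 1 they held 324 CPM of TRIB3 against 55.2 CPM in the remaining cells, and in set 3 they held 252 against 69.7 CPM. NUPR1 stood at 183 against 22.0 CPM in set 1 and at 630.4 against 178 CPM in set 3. MTHFD2 was at 370.0 against 127 CPM and at 366 against 126 CPM in these sets, so both its upper and its lower level were close between them.

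In the few cells of set 2 above the limit, DDIT3 stood at 400 CPM against 48.3 CPM in the rest of set 2, HERPUD1 at 500 against 94.9 CPM and SLC3A2 at 515 against 135 CPM, from 20 cells only. Without the cell with the highest sum, a step added after the data had been seen, HERPUD1 stood at 321 CPM, DDIT3 at 353 CPM, SLC3A2 at 511 CPM and ASNS at 47.4 instead of 115 CPM. Their TRIB3 level was 165 CPM with and 174 CPM without that cell, below that of the upper cells of sets 1 and 3, while their HERPUD1 and DDIT3 levels were above either way. In set 4 the 40 upper cells held NUPR1 at 475 against 111 CPM. G1 cells made up 46.3% of the upper cells and 35.5% of the rest in set 1, 60.0% and 27.0% in set 2, 38.1% and 27.7% in set 3, and 30% and 20.7% in set 4. The upper cells of set 2 also had a lower median depth, 25723.5 against 41241 UMIs as deposited. The part of cell cycle phase and depth in these differences was not tested.

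Within a set, the members were next compared between cells with much and with little TRIB3, which asks whether the response varies as a unit from cell to cell. TRIB3-high cells lay at or above the 75th percentile of the TRIB3 share of UMIs in their set, TRIB3-low cells at or below the 25th. A member with at least 10 CPM in the set was said to follow TRIB3 if its ratio was at least 1.5. In set 1, 21 of 31 compared members did so, against 1.37% of all genes. In set 3, 16 of 29 did, against 0.626%. None of 26 followed in set 2 (background 0.0148%) and none of 29 in set 4 (0.0729%). The median ratio of the compared members was 1.66, 1.09, 1.53 and 1.10 in sets 1 to 4, beside 1.005, 1.02, 1.02 and 1.02 over all genes. In sets 2 and 4 the ratio's interval lay above 1 for 13 of 26 and 13 of 29 members, against 15.8% and 15.7% of all genes. The difference between sets was not tested, because each set is 1 library. That none followed in sets 2 and 4 does not show that a joint response was absent there, since the split rests on fewer TRIB3 counts, given below.

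**Figure D2:**
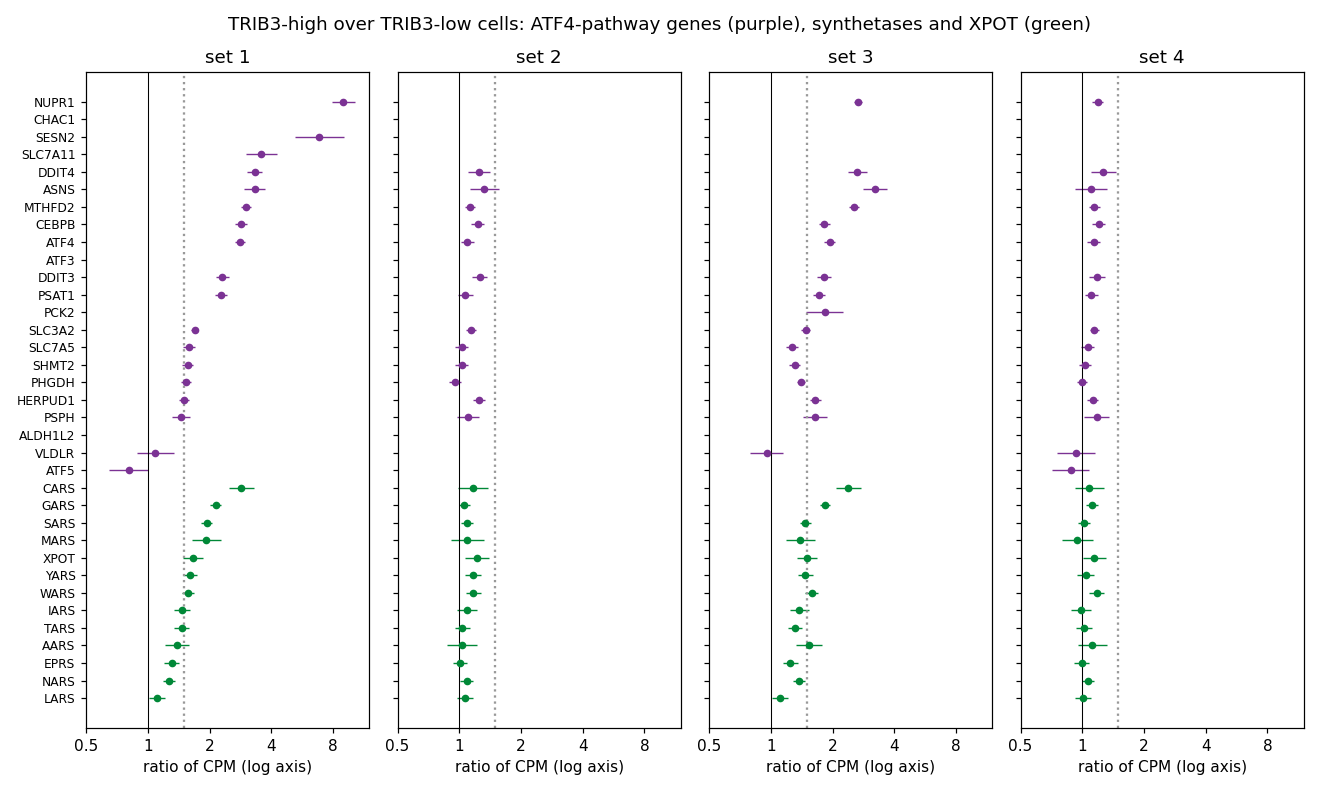
Ratio of CPM in TRIB3-high over TRIB3-low cells of each set (log axis) for members with at least 10 CPM in that set, with 95% counting intervals. The solid line marks 1 and the dotted line 1.5. Points reach 8.99 in set 1 and 3.22 in set 3, and no point reaches 1.5 in sets 2 and 4.

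TRIB3 itself stood at 339 CPM in the high and 0.127 CPM in the low cells of set 1, at 91.2 and 0 CPM in set 2, at 252 and 10.0 CPM in set 3, and at 133 and 3.77 CPM in set 4. Its contrast was therefore smaller in absolute terms in sets 2 and 4. Mean TRIB3 was 3.84, 1.55, 3.35 and 1.995 UMIs per cell in sets 1 to 4. In thinned cells its variance over its mean was 2.67, 1.11, 1.70 and 1.17. With so few counts, counting error weighs more in sorting the cells of sets 2 and 4, and fewer members could reach the limit. TRIB3 levels were not matched between sets for this split, and the part of counting error was not tested. Median depth was 32720 UMIs in high and 28088 in low cells of set 1, 40475 and 35580 in set 2, 31630 and 35011 in set 3, and 32657.5 and 28445 in set 4. S phase cells were 59.0% of the high and 39.4% of the low cells in set 4 and 52.5% and 40.9% in set 2, while set 1 ran the other way with 30.9% and 37.4%. The part of depth and phase in the contrast was not tested. Among cells of 20000 to 50000 UMIs the counts of following members were 23, 0, 16 and 0, and in cells thinned to 10000 UMIs they were 15, 0, 10 and 0. Among G1 cells only, they were 23, 4, 21 and 4.

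In set 1 the stress regulators NUPR1 and SESN2 had the highest ratios. NUPR1 stood at 17.8 CPM in TRIB3-low and 160 CPM in TRIB3-high cells, a ratio of 8.99 (7.95 to 10.2), and SESN2 at 3.95 and 27.0 CPM, a ratio of 6.82 (5.23 to 9.04). ATF4 had 298 against 106 CPM, a ratio of 2.81 (2.66 to 2.97). CEBPB had a ratio of 2.83, DDIT4 of 3.32 and DDIT3 of 2.31. Among supply and metabolic genes, the ratio was 3.58 (3.01 to 4.28) for SLC7A11, 3.31 (2.96 to 3.72) for ASNS, 3.005 (2.85 to 3.17) for MTHFD2 and 2.27 for PSAT1. CHAC1, below the limit for comparison, had 16.9 against 0.765 CPM. PHGDH (1.53), SHMT2 (1.56), SLC7A5 (1.59) and SLC3A2 (1.69) followed by less, and HERPUD1 (1.4996) and PSPH (1.45) fell just short of the limit.

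In set 3 most ratios of the compared members were smaller. ASNS had 51.1 against 15.9 CPM, a ratio of 3.22 (2.81 to 3.70), MTHFD2 281 against 110 CPM (2.54, 2.41 to 2.68) and ATF4 169 against 87.2 CPM (1.94, 1.82 to 2.06). NUPR1 had 450 against 168 CPM, a ratio of 2.67 (2.56 to 2.78), and its level in TRIB3-low cells of set 3 was above that of TRIB3-high cells in set 1. Of 28 members compared in both sets, 12 followed TRIB3 in both. They were ATF4, DDIT3, ASNS, NUPR1, PSAT1, MTHFD2, CEBPB, DDIT4, CARS, GARS, WARS and XPOT. HERPUD1 (1.65), PSPH (1.65) and AARS (1.53) followed in set 3 and fell short in set 1, AARS with 1.39. SLC3A2 (1.48), PHGDH (1.41), SHMT2 (1.31) and SLC7A5 (1.26) fell short in set 3 and followed in set 1, as did SARS, MARS and YARS. PCK2 followed in set 3 at 1.83 and was not compared in set 1, where it was under 10 CPM. Members under 10 CPM in set 3 included those with its largest ratios. CHAC1 had 8.96 (5.33 to 16.1), SLC7A11 6.63 (4.88 to 9.19) and SESN2 4.48 (3.28 to 6.25), while ALDH1L2 had 1.20 and ATF5 1.16. ATF3, compared in no set, had 4.01, 1.92, 2.74 and 2.82 in sets 1 to 4.

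VLDLR and ATF5 were the ATF4-pathway members that were compared and followed in no set. VLDLR had ratios of 1.09 in set 1 and 0.954 in set 3, and ATF5 of 0.805 (0.649 to 0.998) in set 1. ATF5 is known to be controlled at translation, which RNA counts do not show, and whether this bears on its ratio was not tested.

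Among the synthetases the ratio was graded. CARS led in set 1, with 48.1 against 16.8 CPM (2.86, 2.49 to 3.29), and in set 3, with 39.4 against 16.5 CPM (2.39, 2.08 to 2.75). GARS had 204 against 95.4 CPM in set 1 (2.14, 2.02 to 2.28) and a ratio of 1.84 in set 3. SARS (serine) had 1.93 and 1.47 in the 2 sets, and MARS (methionine) 1.92 and 1.39. WARS (tryptophan) had 1.57 and 1.58, YARS (tyrosine) 1.61 and 1.47, and XPOT 1.66 and 1.502. LARS was lowest with 1.10 (1.01 to 1.21) and 1.11, below EPRS (1.31 and 1.245) and NARS (1.27 and 1.38).

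The motif windows printed above and these ratios do not line up gene by gene. CARS has a match 2 bases before its start and the highest synthetase ratio. GARS and SARS, next in set 1, have no match in the stretch searched, nor do TRIB3 and MTHFD2. NARS and TARS have a match next to the start and ratios of at most 1.46 in sets 1 and 3.

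Other synthetase genes did not share the contrast, although which ones were listed as members was chosen with earlier results of these data known. The 8 other cytosolic synthetases (DARS, FARSA, FARSB, HARS, KARS, QARS, RARS and VARS) had 0 following members in every set and median ratios of 0.928, 1.02, 0.972 and 0.997. FARSB had the highest ratio among them in set 1, 1.09, and FARSA the lowest, 0.825. Of 17 mitochondrial synthetases 9 were measured, and 0 spanned 2-fold or followed TRIB3. The 10 listed genes for the multisynthetase complex and for tRNA export or modification gave 0 as well. Over all genes 5.85% spanned 2-fold and at most 1.37% followed TRIB3 in any set. Counts of 0 in lists this short are near those shares.

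Grading cells by their TRIB3 UMIs gave the same picture in steps. In set 1 ATF4 had 107, 121, 172, 273 and 320.1 CPM in cells with 0, 1 to 2, 3 to 5, 6 to 10 and over 10 TRIB3 UMIs. MTHFD2 had 114, 123, 163, 286 and 382 CPM in the same cells. In set 3 MTHFD2 had 107, 123, 159, 237 and 364 CPM, nearly the values of set 1. In set 4 it had 116, 118, 125 and 137 CPM in the first 4 bins, and in set 2 it had 114, 118, 125 and 157 CPM, the last from 35 cells. At 6 to 10 TRIB3 UMIs, MTHFD2 was therefore at 286 and 237 CPM in sets 1 and 3 and at 157 and 137 CPM in sets 2 and 4. That bin held 240, 35, 268 and 106 cells of sets 1 to 4, and lay near the upper end of the TRIB3 counts in sets 2 and 4. The bins use UMIs as deposited, not shares, so the same bin means a lower TRIB3 share in deeper cells. Median depth was 41131 UMIs in set 2 and at most 33556 elsewhere. The sets were thus not matched for TRIB3 level, and the part of depth was not tested. LARS stayed between 50.9 and 61.0 CPM in every bin of every set.

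**Figure D3:**
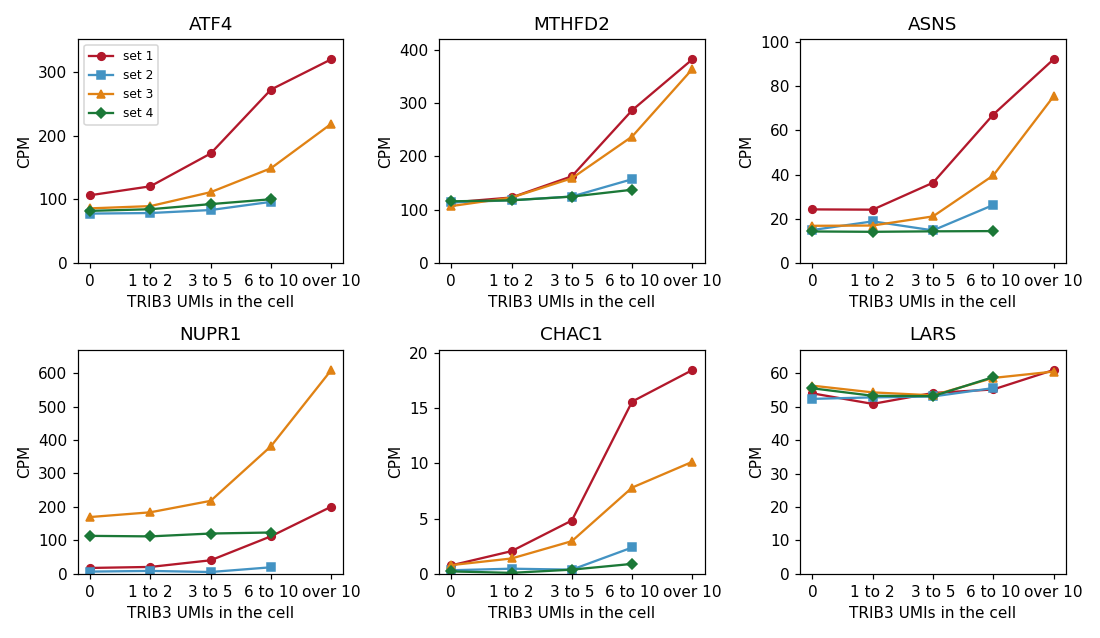
CPM of 6 members in cells binned by their TRIB3 UMIs, by set, with bins of fewer than 20 cells left out. In set 1 ASNS runs from 24.3 to 92.2 CPM and NUPR1 from 17.7 to 201 CPM, in set 4 ASNS stays between 14.2 and 14.5 CPM, and LARS is flat throughout.

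The sets were also compared in cells without any TRIB3 UMI (529, 509, 359 and 472), a step added after the data had been seen. All of these are among the TRIB3-low cells above, which number 531, 509, 535 and 534. Narrower spans here thus follow in part from the ratios above and are no independent result. Without a TRIB3 UMI, cells of sets 1 to 4 held MTHFD2 at 114, 114, 107 and 116 CPM. GARS stood at 95.1, 103, 90.5 and 95.1 CPM, and ATF4 at 107, 77.8, 86.0 and 82.1 CPM. MTHFD2 and GARS were thus nearly level between sets in these cells, and ATF4 kept a smaller excess in set 1. Among the 19 ATF4-pathway members measured, TRIB3 aside, 17 had a narrower span in these cells than in all cells, and the median log2 span was 0.50 instead of 0.81. For synthetases and XPOT it was 10 of 13, with a median of 0.32 instead of 0.47. Of all measured genes 32.9% had a narrower span, and fewer counts widen a span. NUPR1 kept the order of its levels, with 17.7, 6.88, 170 and 114 CPM. SLC7A11, with 10.4, 2.48, 2.09 and 2.40 CPM, kept the excess of set 1 and lost that of set 3. These genes remained 2-fold apart, and VLDLR, at 10.5, 6.28, 14.1 and 10.3 CPM, had a log2 span of 1.05 here and of 0.85 over all cells.

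Correlation over cells gave a finer ranking. A Spearman rho to TRIB3 of at least 0.1 was found for 28 of 31 members in set 1 (background 3.77% of genes), 0 of 26 in set 2 (0.281%), 25 of 29 in set 3 (2.21%) and 0 of 29 in set 4 (0.846%). The median rho was 0.237, 0.034, 0.185 and 0.033. MTHFD2 had the highest rho of all genes in set 1, 0.52, and in set 3, 0.42. In set 1 ATF4 (0.51), CEBPB (0.48) and NUPR1 (0.44) came next.

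In sets 2 and 4 the highest member was CEBPB, at 0.091 and 0.086. These values are over 2121, 1779, 2140 and 2133 cells that share a library and differ in depth. A rho between sparse counts depends on level, and TRIB3 was lower in sets 2 and 4. In cells thinned to 10000 UMIs the median rho was 0.140, 0.010, 0.103 and 0.024. With TRIB3 and each member thinned in those cells to the level of its lowest set as well, a step added after the data had been seen, it was 0.096, 0.008, 0.073 and 0.014, and 13, 0, 6 and 0 members reached 0.1. MTHFD2 was then at 0.28 in set 1, 0.20 in set 3, -0.01 in set 2 and 0.02 in set 4. Both steps lowered the median rho of every set, and sets 1 and 3 stayed above sets 2 and 4.

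Members were also correlated with each other. TRIB3 is among the ATF4-pathway genes here, so its correlations given above are counted again. Of the ATF4-pathway pairs, 122 of 171 had a rho of at least 0.1 in set 1, 10 of 91 in set 2, 87 of 136 in set 3 and 12 of 136 in set 4. Pairs of an ATF4-pathway gene with a synthetase or XPOT gave 150 of 247 in set 1 and 109 of 221 in set 3. Pairs within the synthetases and XPOT gave 32, 1, 23 and 0 of 78. Over all pairs of genes with at least 10 CPM in the set, the share was 1.84%, 1.86%, 1.55% and 1.39%. In sets 2 and 4 the pairs within the synthetases, 1 and 0 of 78, were too few to be told apart from that share. Those across the groups were 7 of 182 and 4 of 221. Leaving TRIB3 aside, the highest pair was PSAT1 with MTHFD2 in set 1 (0.431) and ATF4 with NUPR1 in set 3 (0.391).

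Sets 2 and 4 kept a different pair at the top, SLC3A2 with HERPUD1, at 0.179 and 0.192. PSAT1 and PHGDH, successive enzymes of serine synthesis, were correlated in every set at 0.221, 0.148, 0.244 and 0.141, and so were SLC7A5 and SLC3A2, the partners of 1 transporter, at 0.225, 0.147, 0.183 and 0.122. ATF4 and MTHFD2, by contrast, had 0.386 and 0.265 in sets 1 and 3 and 0.030 and 0.002 in sets 2 and 4. DDIT3 and MARS, whose ends overlap, had 0.094, 0.069, 0.069 and 0.049.

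**Figure D4:**
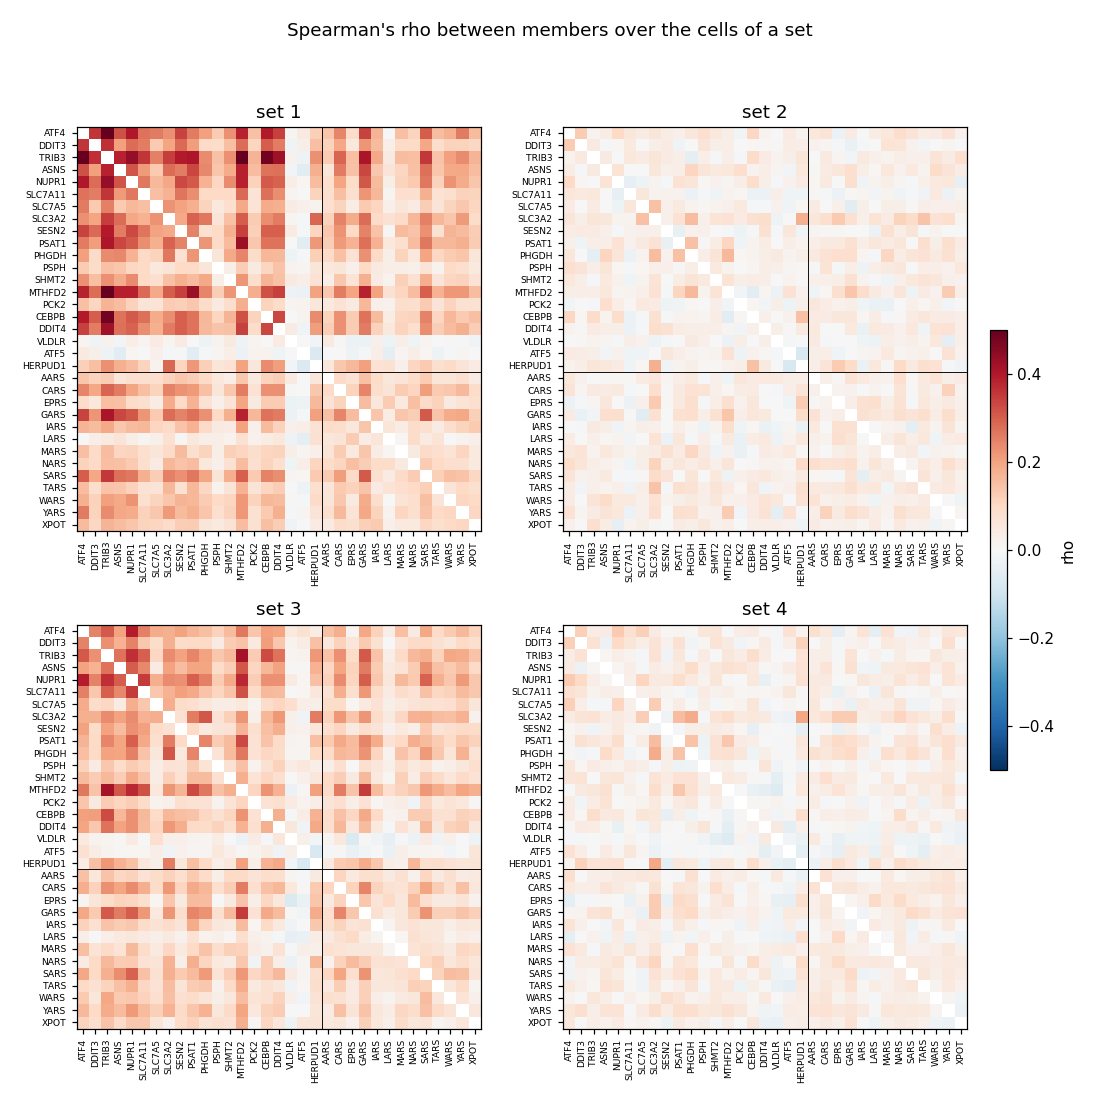
Spearman's rho between members over the cells of each set, as a colour scale from blue (negative) to red (positive), with ATF4-pathway genes before and synthetases with XPOT after the black lines. Sets 1 and 3 show broad blocks of positive values with MTHFD2, GARS and SARS as bands, and sets 2 and 4 are pale.

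Related pathways from lists of known genes set the members in context. Of 19 measured further reported ATF4 targets, 3 spanned 2-fold: SLC1A4, a neutral amino acid exchanger (31.5, 9.51, 17.6 and 15.2 CPM), CBS, of transsulfuration (22.4, 11.5, 15.2 and 9.95 CPM), and GPT2, a mitochondrial alanine transaminase (11.6, 4.99, 6.54 and 5.91 CPM). The share over all measured genes was 5.85%. All 3 were highest in set 1, as were 44.9% of all measured genes, and GPT2 reached 10 CPM in set 1 alone. In TRIB3-high cells 11 of 19 followed in set 1, 0 of 15 in set 2, 5 of 18 in set 3 and 0 of 17 in set 4. The shares over all genes were 1.37%, 0.0148%, 0.626% and 0.0729%. CEBPG, a C/EBP partner of ATF4, had ratios of 3.83, 1.14, 2.79 and 1.35.

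The eIF2 kinases, phosphatase subunits and eIF2 subunits had 0 of 14 genes 2-fold apart, and 1 followed TRIB3, in set 1: PPP1R15A (GADD34), which ends the response by dephosphorylating eIF2α, at 2.19. None of 18 measured ER chaperone and unfolded protein response genes spanned 2-fold. Of these, 1 followed TRIB3, in set 1: XBP1 at 1.53. Over all measured genes 5.85% spanned 2-fold, so 0 of 14 and 0 of 18 lie near that share and set neither list apart. HSPA5 (BiP), the main ER chaperone, had ratios of 0.781, 1.06, 0.809 and 1.05 in sets 1 to 4. The median ratio of the 18 was 0.947, 1.08, 0.997 and 1.08. In set 2 XBP1 had the highest rho to TRIB3 of all compared genes, 0.149. SDF2L1, from the same list, had a rho of -0.203, 0.103, -0.051 and 0.123 in sets 1 to 4. Of 7 measured NRF2 targets, a family that shares SLC7A11 with the ATF4 response, 4 spanned 2-fold, against 5.85% of all measured genes. These 4 were all highest in set 1, as were 44.9% of all measured genes. None of the 7 followed TRIB3 in any set, where the share over all genes was at most 1.37%. OSGIN1 stood at 34.1, 12.9, 10.1 and 10.7 CPM and TXNRD1 at 115, 76.7, 52.3 and 55.9 CPM. Of 10 measured mTORC1 genes 0 spanned 2-fold and 0 followed, which in so short a list is near the shares over all genes.

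Outside the members, the genes most like TRIB3 were ranked by the mean rho over the 4 sets among genes with at least 20 CPM in every set. The first 10 non-members were EIF1 (mean rho 0.23), which controls start codon choice, GDF15 (0.20), a secreted stress hormone, RCAN1 (0.18), a calcineurin inhibitor, EIF2S2, a subunit of eIF2, PMAIP1 (NOXA), a pro-apoptotic BCL2 relative, ANKRD11, EIF4EBP1, a repressor of cap-dependent translation, UPP1, a uridine phosphorylase, SLC1A5, a glutamine carrier, and ARHGEF2 (0.16). GDF15, EIF4EBP1 and SLC1A5 are also on the list of further reported ATF4 targets used above, and EIF2S2 is on that of the eIF2 genes. Of the first 20 genes in that ranking by mean rho, 8 were members, out of 22 members among the 4294 genes with that level. GDF15 and UPP1 had a rho over 0.1 in every set, at 0.107 and 0.123 in set 2 and 0.148 and 0.102 in set 4. RCAN1 spanned 2-fold in the order of TRIB3, with 103, 34.5, 54.0 and 40.4 CPM.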

How the data were processed

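The authors deposited UMI counts per gene and cell for 4 libraries. Cell Ranger 3.0.0 and Seurat 3.0 with the builds hg19 and mm10 are named per the submitters' processing notes, which name no step for either build. The members and lists were chosen with earlier results of these data known. Counts were summed per barcode set and divided by the set total (CPM), and sets were compared on log2(CPM + 1). Thinning drew 10000 UMIs per cell. Spearman's rho used log(1 + 10000 × count / total). Named were ATF4, TRIB3, DDIT3, ASNS, CHAC1, NUPR1 and members 2-fold apart or following TRIB3, other members by range, and the leading non-members by rule. No test was run, since cells are not replicates and no label ties a set to a line; code was tested on simulated data. Phases were scored with scanpy 1.11.5. The remaining steps used numpy 2.4.6, scipy 1.17.1 and pandas 2.3.3, and TMM scaling used edgeR 4.0.16. Alternatives covered scaling, filters, thresholds, depth, G1 cells and shared barcodes. ATF4, ASNS, PSAT1 and MTHFD2 have 4, 5, 4 and 7 annotated pseudogene copies, so their counts are less certain.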

Additional observations from a re-analysis of the deposited data

How the results depend on the processing

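No paired analysis was possible because the labels number no replicates and the sets are not tied to lines. The count of members 2-fold apart, 7, was 4 at a minimum of 50 CPM, where fewer genes are tested, and lay within 1.5 times of 7 under the other alternatives run. Members following TRIB3 in set 3, 16, came to 26 at a lower fold limit and 10 in thinned cells. In sets 2 and 4, where none followed, the lower limit gave 2 and 1, no filter on low genes 3 and 2, G1 cells 4 and 4, and a split at the 90th percentile 2 in set 2. Members with a rho of at least 0.1 numbered 13 in set 1 and 6 in set 3 with levels matched and 15 in set 3 after thinning. In set 2 Pearson's r gave 6 and G1 cells gave 2, and in set 4 these gave 1 and 5. The ATF4-pathway median of set 1 was 14.4 at deposited depth and 16 in G1 cells, and that of set 2 was 9 in G1 cells. With totals that leave out mitochondrial and ribosomal genes, the ATF4-pathway medians were 20.9, 14.4, 22.6 and 18.7 and the synthetase medians 11.2, 9.60, 11.1 and 9.91, since smaller totals raise every value. Without NUPR1, SLC3A2, PHGDH and MTHFD2 the ATF4-pathway medians were 10, 6, 9 and 7. In G1 cells the log2 ratio to TRIB3 turned negative for YARS in set 2 (-0.18) and for PSAT1 (-0.068) and MTHFD2 (-0.018) in set 4; the cause was not tested for any change but those whose construction is named. Of the single-gene values, 609 of those on the TRIB3 contrast stayed within their spread, 193 moved and 3 changed sign, and of those between sets 146 stayed and 34 moved. Without the cells of shared barcodes, a step added after the data were seen, the counts of following members were 21, 0, 15 and 0. Depth limits CHAC1 and ALDH1L2 most, with 20 and 9 UMIs in their lowest sets.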

Other observations

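Some genes outside the list ran against TRIB3, and they were singled out after their values had been seen. HSPA8, the constitutive cytosolic heat shock chaperone, stood at 858 CPM in TRIB3-high and 1653 CPM in TRIB3-low cells of set 1, a ratio of 0.519 (0.509 to 0.530) and the lowest rho to TRIB3 of that set, -0.42. In sets 2, 3 and 4 its ratios were 1.005, 0.930 and 1.03. DYNLL1, a dynein light chain, had ratios of 0.678, 0.970, 0.776 and 0.934 in sets 1 to 4 and the lowest mean rho to TRIB3 among genes with at least 20 CPM in every set, -0.16. The ribosomal protein genes RPL35, RPL7, RPS15, RPL27A and RPS19 were also among the lowest in that ranking. Their ratios were below 1 in every set, from 0.859 for RPL7 in set 3 to 0.972 for RPL27A in set 2.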
